A study of Mus musculus with 4 samples.

Results

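The genes described are 10 mRNA export factors of the mouse, *Nxf1*, *Nxt1*, *Nxt2*, *Alyref*, *Ddx39b*, *Thoc1*, *Thoc2*, *Thoc5*, *Thoc6* and *Thoc7*. All transcripts of the deposited RNA-seq table that carry one of these gene symbols were taken, which gave 22 of 34200 transcripts and 10 of 21945 genes. The set was chosen by a measured value of this comparison, the effect of the knockdown on *Nxt2*, which was among the largest rises, so the rise of *Nxt2* is given as a description, with no test. The cells were NIH/3T3, a fibroblast line derived from mouse embryos. The knockdown group (KD) received siRNAs against *Setd2* and the control group (WT) the Scrambled siRNA, which targets no gene, at 10 nM. RNA was harvested 48 h later from 2 KD and 2 WT samples, which the design text describes as independent transfections, and polyadenylated RNA was sequenced with a stranded kit. SETD2 is the histone methyltransferase that places H3K36me3 along transcribed genes, and the experiment asked how its depletion changes pre-mRNA processing.

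Export of an mRNA from the nucleus is coupled to its transcription and splicing. The multi-subunit THO complex and the RNA helicase DDX39B together bring the adaptor protein ALYREF to the mRNA, and this larger assembly is called TREX. The adaptors hand the mRNA to the export receptor, a heterodimer of NXF1 with a small partner, NXT1 or its paralog NXT2, which passes through the nuclear pore. In fibroblasts, as in other cells, these genes are expressed as part of the general machinery of gene expression.

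The deposited table holds the outcome of a comparison in Sleuth and not the values of single libraries. Each transcript has its mean and variance over the 4 libraries and its effect between the groups, as natural logs of normalised estimated counts. From these, the level of each group was computed as a geometric mean in normalised estimated counts, hereafter counts, together with a range that must contain both libraries of that group. Fold changes are given as log2(fold change) of KD over WT, with the standard error (SE, n = 2 in each group). A transcript was called higher or lower where the deposited q-value of the likelihood ratio test was under 0.05. The table does not name the direction of its effects, which were read as KD minus WT because *Setd2* itself was at 923 counts in one group and 3680 in the other. Read this way, *Setd2* fell by 1.99 on the log2 scale (SE 0.09) to 923 in KD. Of the 6 fibroblast markers examined all were listed, with summed levels of 721085 in KD and 965107 in WT counts. The markers did not move one way: *Col1a1*, *Col1a2* and *Col3a1* each had a called transcript and log2(fold changes) of -0.68, -0.68 and -0.92, *Pdgfrb* was at 0.36 with a called transcript, and *Vim* and *S100a4* were at 0.06 and -0.19 with none. Their part in the results was not tested. The 7 markers of epithelial, blood and endothelial cells summed to 641 in KD and 526 in WT, and *Epcam* was not listed. Library depth is unknown, so no counting interval is given.

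*Nxf1* and *Nxt2* are followed by isoform, and the sequences that tell these isoforms apart are shown first, as read from the GENCODE M21 annotation and the GRCm38 genome on the plus strand. Mouse *Nxf1* (chr19:8757073-8770922) has a long-known alternative in which the intron after exon 10 is kept. The retained intron, chr19:8765032-8766796, is 1765 bases long. It is present in the isoform *Nxf1-209* and spliced out in *Nxf1-201*. With 15 bases on either side of each boundary, capitals mark exon 11 in the spliced form and the intron in the retained form.
Nxf1-201, exon 10 to exon 11: gtccagctatatcagCGCCATTCGCGAACG
Nxf1-209, exon 10 into the intron: gtccagctatatcagGTCAGTTGTAGCCTC
Nxf1-209, the intron into exon 11: TCCCGTTCTTGACAGcgccattcgcgaacg
The annotated coding sequence of *Nxf1-201* has 618 codons and that of *Nxf1-209* has 418. The shorter isoform *Nxf1-204* ends inside that intron, at position 8765291, and has 282 codons. The search for shared words of 31 bases covered transcripts tagged basic in the annotation and the tested member transcripts, not all annotated ones. Of the words in *Nxf1-209*, 38.2% occur in no other transcript searched, which compares with 3.31% for *Nxf1-201* and 2.94% for *Nxf1-204*.

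*Nxt2* (chrX:142227937-142239692) has 3 tested isoforms that begin at different first exons. *Nxt2-201* and *Nxt2-203* start 240 bases apart, at positions 142227937 and 142228177, and *Nxt2-202* starts at 142228703. Capitals mark the 15 bases that are particular to each isoform, lower case the 15 bases that follow.
Nxt2-201, exon 1 to exon 2: GCTTACAAAAGCAAGccaaaggacccagac
Nxt2-203, within its first exon: CTCATCCTTCCACAGccaaaggacccagac
Nxt2-202, exon 1 to exon 2: ATCAGGGATACTCTGaattttaaaacttat
The first 2 share the bases that follow and a coding sequence of 142 codons, while that of *Nxt2-202* has 114 codons. By the same search, few words of 31 bases are found in a single isoform of *Nxt2*: 3.10% in *Nxt2-201*, 4.56% in *Nxt2-203* and 7.81% in *Nxt2-202*. The proteins of *Nxt1* and *Nxt2*, translated from the annotation, are identical at 103 of 140 aligned residues (73.6%). At the RNA level the genes stay distinct, since 0% of the words of *Nxt2-201* and *Nxt2-203* occur in a searched transcript of another gene.

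In KD, *Nxt2* had 2 of 3 transcripts called higher, *Ddx39b* and *Thoc6* had 1 of 3 each, and *Nxf1*, *Thoc2* and *Thoc7* had transcripts that fell. The calls of *Nxt2* are a description and no test, since its rise chose the set. In such bulk RNA, fewer cells that express a gene and less of its RNA in each cell cannot be told apart. No transcript of *Nxt1*, *Alyref*, *Thoc1* or *Thoc5* was called. Of the 22 transcripts, 4 were higher and 4 lower (18.2% each), where 7.26% and 5.21% of all transcripts were. These counts include *Nxt2*, whose rise chose the set, so the share of rises is read without it. Of the 19 other transcripts 2 were higher (10.5%) and 4 lower (21.1%), and of the 9 other genes 2 had a higher transcript and 3 a lower one, beside 10.1% and 7.43% of all genes. The members were better covered than most: 17 of the 22 averaged 100 or more counts. Of the 16 such transcripts outside *Nxt2*, 2 were higher (12.5%) and 4 lower (25%), where 12.7% and 8.74% of all such transcripts were, so the share of rises was at the background. The median log2(fold change) was 0.21 over the 22 transcripts, which turned to -0.24 when effects were divided by *Actb*, and -0.01 over all transcripts. Over transcripts that averaged 100 or more counts it was 0.11 for the members outside *Nxt2* and 0.05 for all. KD and WT libraries could not have overlapped for 17 of the 22 transcripts and must have overlapped for 4. Over all transcripts, 54.8% could not have overlapped. The count of members includes *Nxt2* and the share over all transcripts is not limited to well-covered ones, so they are not compared. The moderated test of limma, computed from the same means and variances, called 7 of the 22 transcripts, a set that includes *Nxt2*. All 7 were also called in Sleuth. Without *Nxt2*, limma called 5 of 19 (26.3%), beside 9.68% of all transcripts. Here and in the limma results that follow, the share of all transcripts is not limited to well-covered ones, so it is not compared. In limma without a trend of the variance with the mean, 0 of the 22 were called, as were 0.149% of all transcripts higher and 0.222% lower. At an unadjusted p under 0.05 this test held 9 of the 22, a set that includes *Nxt2*, and 24% of all transcripts.

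**Figure D1:**
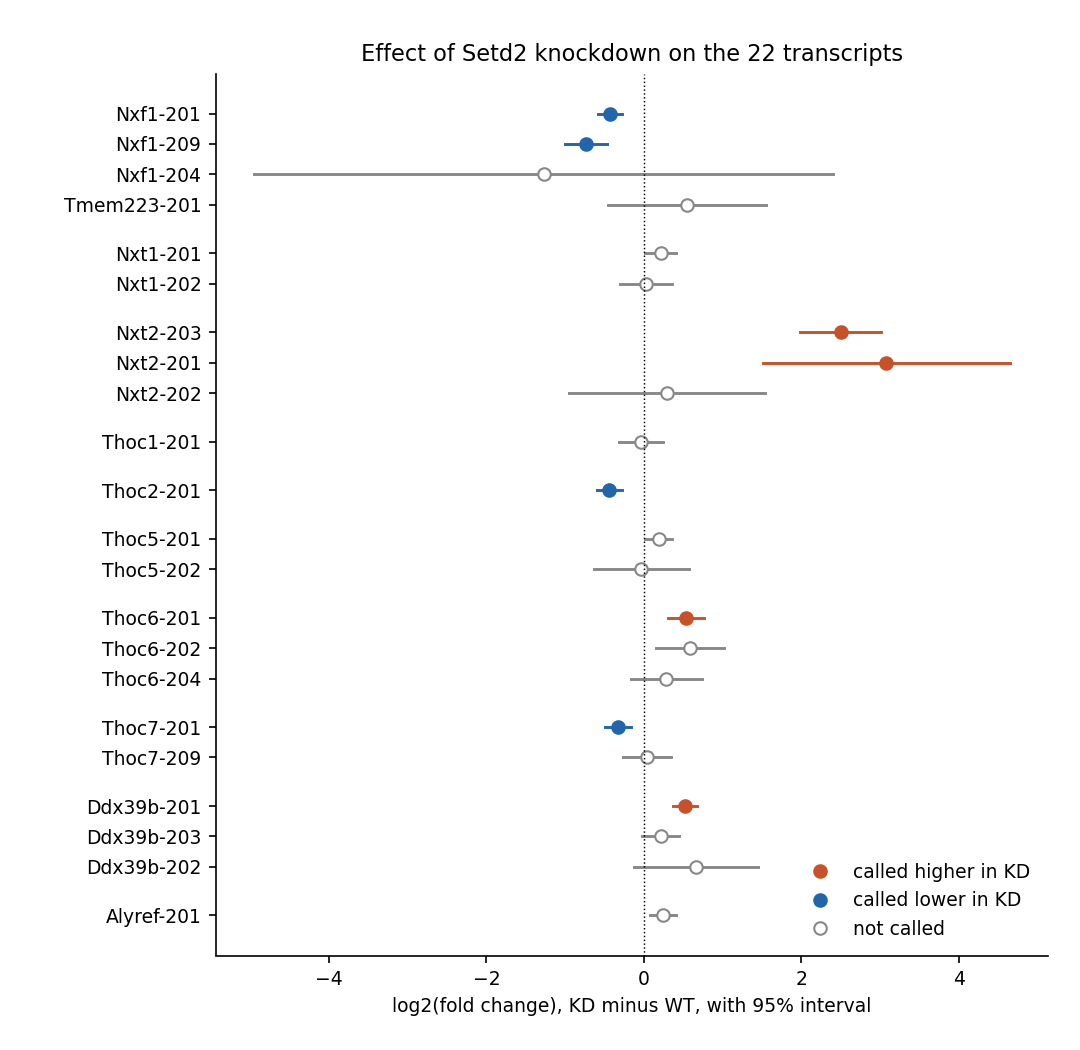
Log2(fold change) of KD over WT for the 22 transcripts, with 95% intervals from the deposited standard errors (2 KD and 2 WT libraries). *Nxt2-203* and *Nxt2-201* lie at 2.50 and 3.08, and the other 6 called transcripts lie between -0.73 and 0.54.

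Transcripts of the export receptor fell, while those of *Nxt2*, one of its partners, rose. *Nxf1-201*, the full-length form of the receptor, had 6487 counts in KD and 8764 in WT. Each KD library lay between 6452 and 6521 and each WT library between 8718 and 8811, so the groups did not overlap. The log2(fold change) was -0.43 (SE 0.08, q = 0.0156), that is 26.0% less RNA in KD. *Nxf1-209*, the form with the retained intron, had 3849 counts in KD and 6404 in WT. Its KD libraries lay between 3505 and 4227 and its WT libraries between 5832 and 7033, again without overlap. It fell by 0.73 on the log2 scale (SE 0.14, q = 0.0228). The intron-retaining form thus had a log2(fold change) 0.30 below that of the spliced form (-0.73 against -0.43), a difference that was not tested, since the libraries were not analysed one by one here. Per kilobase of transcript, *Nxf1-209* made up 28.9% of the summed level of the gene in WT and 25.1% in KD.

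Both *Nxf1* transcripts kept their sign under each of the other scalings. With the effects divided by *Actb*, which was itself higher in KD by 0.46 (SE 0.11), *Nxf1-201* was at -0.89. Centred on transcripts of like GC content it was at -0.44, and *Nxf1-209* was at -0.78. The truncated *Nxf1-204* was at 53.1 counts in KD and 129 in WT, with a log2(fold change) of -1.27 (SE 1.88, q = 0.630). Of its variance, 98.8% came from the assignment of reads to isoforms, so a change of this isoform was not detectable. A further row carries the symbol *Nxf1* in the table, but GENCODE M21 assigns its transcript to *Tmem223*, the next gene downstream. It was at 24.7 counts in KD and 16.8 in WT (log2(fold change) 0.54, SE 0.51, q = 0.395) and was left out of the gene sums.

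*Nxt1* encodes the common partner of NXF1, which stabilises the receptor and helps it to bind the pore. *Nxt1-201* (chr2:148672626-148676027, plus strand) had 1668 counts in KD, with both libraries between 1628 and 1709, and 1439 in WT, with both between 1405 and 1474. The KD libraries were thus the higher ones, without overlap. The log2(fold change) was 0.21 (SE 0.10) and the transcript was not called (q = 0.0779). *Nxt1-202*, which has the same coding length, had 490 counts in KD and 481 in WT, with libraries that overlapped (log2(fold change) 0.03, SE 0.17, q = 0.215). The deposited Wald test gave q = 0.149 for *Nxt1-201*, which was at -0.24 divided by *Actb*. Combined over both transcripts, the deposited q-value of the gene was 0.0388, which carries no direction. Of the words of *Nxt1-201*, 14.0% also occur in AC170187.2, so part of its reads could be shared.

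*Nxt2*, the paralog that can take the place of NXT1 at the receptor, was the member with the largest rise. *Nxt2-203* had 1227 counts in KD and 217 in WT. Both KD libraries lay between 1021 and 1475 and both WT libraries between 180 and 261. The log2(fold change) was 2.50 (SE 0.27), a level 5.65 times that of WT, and this rise ranked 17 among the 18808 transcripts that averaged 100 or more counts. *Nxt2-201*, which starts 240 bases upstream, went from 22.8 counts in WT to 196 in KD. Its WT libraries lay between 19.1 and 27.3 and its KD libraries between 165 and 234 (log2(fold change) 3.08, SE 0.80). Of the variance of *Nxt2-201*, 92.8% came from the assignment of reads, against 15.3% for *Nxt2-203*. Both stayed far above 0 under the other scalings, with *Nxt2-203* at 2.04 divided by *Actb* and at 2.90 after GC centring. The isoform with another first exon and a shorter coding sequence, *Nxt2-202*, had 40.2 counts in KD and 32.7 in WT (log2(fold change) 0.29, SE 0.63). Its 95% interval reached from -0.95 to 1.53, so this isoform was not resolved at its low level.

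Per kilobase of transcript, *Nxt1* stood above *Nxt2* in both groups. In WT the summed level of *Nxt1* was 1936 counts per kilobase and that of *Nxt2* was 110, a ratio of 17.7. In KD they were 2185 and 590 per kilobase, a ratio of 3.70. *Nxt2* therefore made up 5.35% of the RNA of both partners in WT and 21.3% in KD. Their sum went from 2046 to 2775 per kilobase, 1.36 times the WT level, while *Nxf1* went from 5479 to 3793 per kilobase. On the log2 scale the sum was higher in KD by 0.44 and *Actb* by 0.46, so divided by *Actb* the sum would not have risen. The level of *Nxf1* was 2.68 times the sum of its partners in WT and 1.37 times in KD. These ratios come from group means, so no error can be attached to them, and they are ratios of RNA, not of protein.

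**Figure D2:**
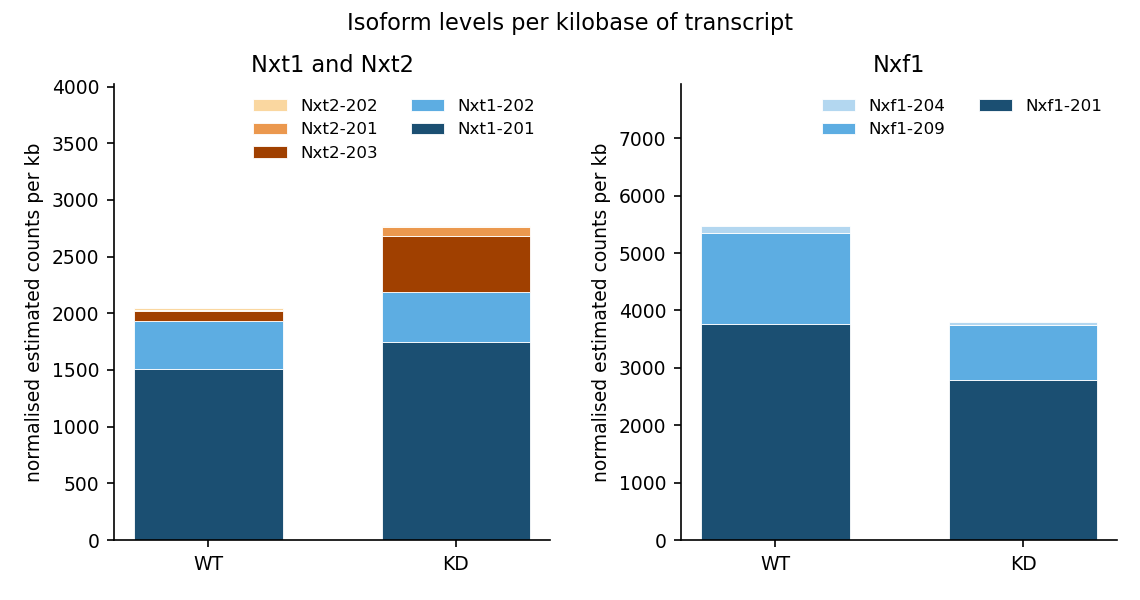
Stacked levels of the isoforms in normalised estimated counts per kilobase of transcript, as geometric means of 2 libraries in each group. The sum of *Nxt1* and *Nxt2* is 2046 in WT and 2775 in KD, with most of the added height in *Nxt2-203*, and *Nxf1* goes from 5479 to 3793.

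Among the THO subunits in the set, 2 of 5 genes had a transcript that fell, 1 had a transcript that rose and 2 had none that was called. Of all genes, well covered or not, 10.1% had a higher and 7.43% a lower transcript. *Thoc3*, a THO subunit outside the set, was called higher and is given with the pathway lists. THOC2 is the large scaffold on which the other subunits are assembled. *Thoc2-201* (chrX:41794991-41911901, minus strand), its only tested transcript, had 3267 counts in KD, with libraries between 3248 and 3286, and 4434 in WT, with libraries between 4408 and 4460. The groups stood apart by far more than their libraries differed (log2(fold change) -0.44, SE 0.08, q = 0.0164). *Thoc2-201* has a GC content of 37.5%, where the median of all transcripts was 49.2%. Centred on transcripts of like GC content, its log2(fold change) was -0.05 and the call was lost (Wald q = 0.846). The part of GC content in the fall was not tested.

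THOC7 is a small subunit that pairs with THOC5. *Thoc7-201* (chr14:13949012-13961277, minus strand) had 3030 counts in KD and 3809 in WT, with KD libraries between 2909 and 3156 and WT libraries between 3657 and 3967. It fell by 0.33 on the log2 scale (SE 0.09, q = 0.0347). The call was lost in limma (adjusted p = 0.0692) and after GC centring, which gave -0.15 (Wald q = 0.299). *Thoc7-209*, which starts further upstream, had 891 and 868 counts in KD and WT (log2(fold change) 0.04, SE 0.16, q = 0.338). Its libraries overlapped. Over the sum of both transcripts the gene was 0.25 lower in KD on the log2 scale. Of the words of *Thoc7-201*, 31.5% are antisense to Gm11100, and the strand setting of the quantification was not given in the sources used here.

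*Thoc6*, which encodes a WD-repeat subunit of the complex, had 1 transcript that rose in KD. *Thoc6-201* (chr17:23668618-23673842, minus strand) had 1556 counts in KD and 1072 in WT, with KD libraries between 1453 and 1666 and WT libraries between 1001 and 1148. Its log2(fold change) was 0.54 (SE 0.12, q = 0.0273). *Thoc6-202* and *Thoc6-204* code for a protein of the same length. *Thoc6-202* was at 527 in KD and 351 in WT (log2(fold change) 0.58, SE 0.22, q = 0.0714), and *Thoc6-204* at 360 and 295 (0.29, SE 0.23, q = 0.215). The KD libraries of all 3 transcripts lay above the WT libraries. Assignment of reads made up 30.6% of the variance of *Thoc6-201*, with 59.3% for *Thoc6-202* and 56.6% for *Thoc6-204*. Of the words of *Thoc6-201*, 0% occur in no other transcript searched, beside 1.97% for *Thoc6-202* and 2.00% for *Thoc6-204*. The call of *Thoc6-201* apart from the other isoforms thus rests on how shared reads were assigned. *Thoc6-201* was at 0.08 divided by *Actb* and at 0.32 after GC centring (Wald q = 0.0393). Of its words, 14.7% are antisense to *Hcfc1r1*, whose 3 tested transcripts had log2(fold changes) from 0.36 to 0.41 and were not called.

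*Thoc1* and *Thoc5*, which encode further core subunits of THO, had no called transcript. *Thoc1-201* had 4194 counts in KD and 4303 in WT, with libraries that overlapped (log2(fold change) -0.04, SE 0.14, q = 0.540). Its 95% interval, -0.32 to 0.25, leaves room for changes of that size. Of its words, 52.1% are antisense to *Usp14*, whose tested transcripts were at 0.08 and -0.01. *Thoc5-201* (chr11:4895343-4928865, plus strand) had 2781 counts in KD and 2438 in WT, with KD libraries between 2688 and 2878 and WT libraries between 2356 and 2522 (log2(fold change) 0.19, SE 0.09, q = 0.0730). In the deposited Wald test *Thoc5-201* had q = 0.132, and divided by *Actb* it was at -0.27. The minor *Thoc5-202* was at 137 and 140 counts (log2(fold change) -0.03, SE 0.31, q = 0.419), with overlap of the libraries.

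The helicase and the adaptor were the members of TREX outside THO. DDX39B is an ATP-dependent helicase that acts in spliceosome assembly and in loading of export factors. *Ddx39b* was the most abundant of the 10 genes per kilobase, at 9985 in KD and 7014 in WT counts per kilobase. *Ddx39b-201* (chr17:35241746-35253707, plus strand) had 16635 counts in KD, with libraries between 15808 and 17505, and 11595 in WT, with libraries between 11019 and 12202. It rose by a log2(fold change) of 0.52 (SE 0.08, q = 0.0160), with no overlap of the groups. The rise was 0.41 after GC centring and 0.06 when divided by *Actb*. *Ddx39b-203* was at 1011 and 872 counts in KD and WT (0.21, SE 0.12, q = 0.101), and *Ddx39b-202* at 114 and 71.8 (0.66, SE 0.40, q = 0.209).

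ALYREF binds the mRNA and passes it to NXF1. *Alyref-201* (chr11:120592121-120598365, minus strand), its only tested transcript, had 4821 counts in KD and 4082 in WT, with KD libraries between 4547 and 5113 and WT libraries between 3849 and 4329. KD was higher without overlap, with a log2(fold change) of 0.24 (SE 0.08), and the transcript was not called (q = 0.0761). The deposited Wald test gave q = 0.0281. Divided by *Actb*, *Alyref-201* was at -0.22.

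**Figure D3:**
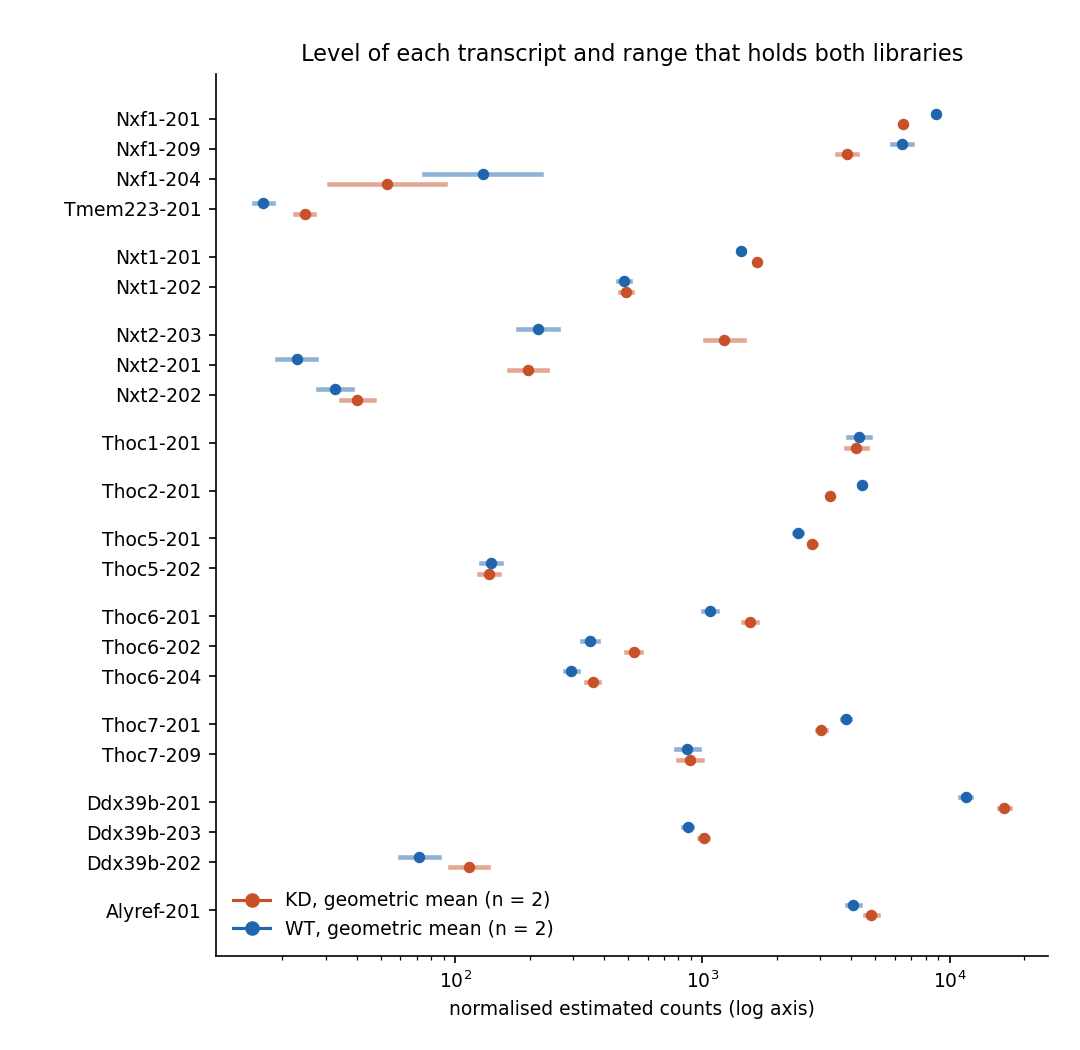
Level of each of the 22 transcripts in normalised estimated counts on a log axis, as geometric means of 2 KD and 2 WT libraries, with bars for the range that must hold both libraries of a group. The bars of *Nxt2-203* and *Nxt2-201* are far apart, and those of *Thoc1-201* and *Nxt1-202* overlap.

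Per kilobase, the order of the summed levels in WT was *Ddx39b* at 7014, *Nxf1* at 5479, *Thoc7* at 5199, *Nxt1* at 1936, *Thoc6* at 1162, *Alyref* and *Thoc5* at 1157, *Thoc1* at 1041, *Thoc2* at 582 and *Nxt2* at 110. *Thoc6*, *Alyref* and *Thoc5* were not separated in WT. By the mean of both groups *Ddx39b* lay at percentile 97.6 of all genes and *Nxt2*, the lowest of the 10, at percentile 62.2. In KD, *Thoc7* at 4399 stood above *Nxf1* at 3793, and *Nxt2* at 590 stood above *Thoc2* at 429. No error can be attached to these orders between genes.

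**Figure D4:**
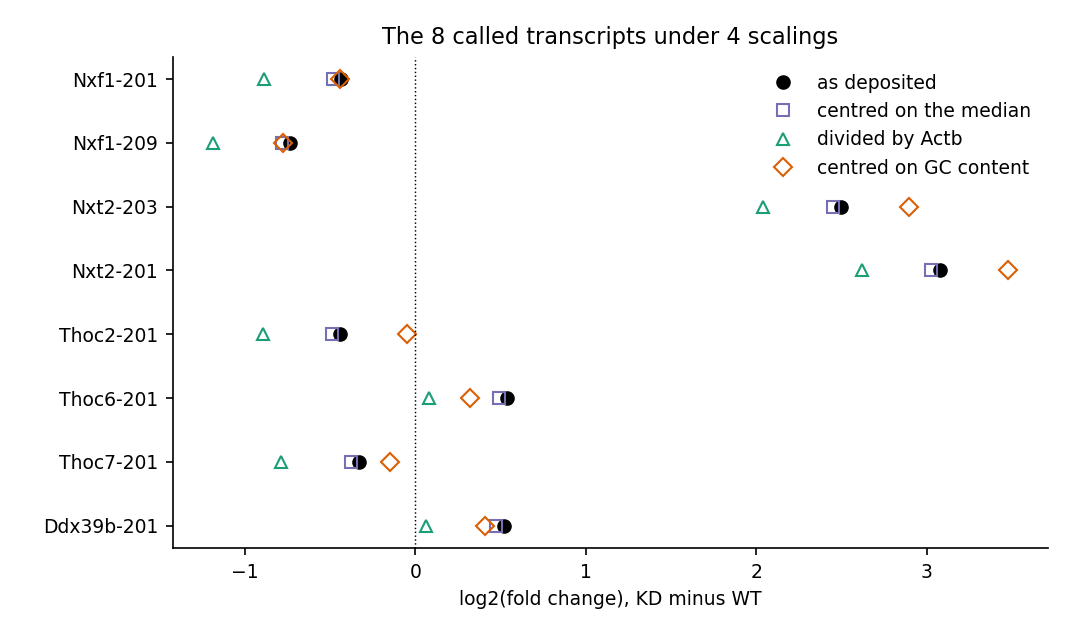
Log2(fold change) of the 8 called transcripts as deposited, centred on the median of well-covered transcripts, divided by *Actb*, and centred on transcripts of like GC content. All 8 keep their sign in each case, with *Thoc2-201* at -0.05 after GC centring and *Ddx39b-201* at 0.06 when divided by *Actb*.

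The close paralogs of the members were examined next. *Nxf3*, a relative of *Nxf1* whose protein is identical at 41.2% of aligned residues, was at 636 counts in KD and 1073 in WT. It fell by 0.75 on the log2 scale (SE 0.12, q = 0.0156). *Nxf2* and *Nxf7* were not listed. *Ddx39*, which encodes a helicase identical to DDX39B at 91.1% of residues, had its main transcript *Ddx39-201* at 10935 and 8403 counts in KD and WT (log2(fold change) 0.38, SE 0.13, q = 0.0789). The minor *Ddx39-206* rose by 0.65 (SE 0.14, q = 0.0226), and *Ddx39-202* was at -0.16 (SE 0.17, q = 0.216). *Alyref2* was at 202 and 220 counts (log2(fold change) -0.13, SE 0.20, q = 0.219).

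Around the 10 genes, 7 lists of the export pathway held 70 tested genes, with 152 transcripts. At least 1 transcript was higher in KD for 25 genes (35.7%) and lower for 7 (10%), beside 10.1% and 7.43% of all genes. The counts of genes in each list below stand beside the same shares of all genes. These genes were better covered than most, so shares are also given by transcript. Of the 137 that averaged 100 or more counts, 28 were higher (20.4%) and 8 lower (5.84%), beside 12.7% and 8.74% of all such transcripts. The median log2(fold change) over these transcripts was 0.17, with -0.01 over all transcripts and 0.05 over those that averaged 100 or more counts. Among partners of THO and TREX, 7 of 15 genes had a higher and 3 a lower transcript. *Thoc3*, a THO subunit outside the 10 members, rose by 0.50 (SE 0.10, q = 0.0208). Among called transcripts that averaged 100 or more counts, the largest rise was *Erh-202* at 1.11 (SE 0.08, q = 0.0103), of a small conserved protein that works with RNA-binding partners, and the largest fall *Luzp4-202* at -0.93 (SE 0.16, q = 0.0211), which encodes an adaptor of the export receptor. *Erh* and *Cpsf6* had transcripts in both directions, and the minor *Erh-205*, at a mean of 70.6 counts, fell by 1.21 (SE 0.32, q = 0.0398).

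Of the 8 tested genes among NXF paralogs and cofactors, 3 had a higher transcript, with *U2af1-202*, of the small subunit of the factor that recognises the 3′ splice site, at 0.82 (SE 0.10, q = 0.0134). *U2af1-202* is the less abundant isoform, with a mean of 2717 counts. The main *U2af1-201*, with a mean of 6913, was at 0.27 (SE 0.17, q = 0.251). In TREX-2, which links transcription to export at the pore, 3 of 8 genes had a higher transcript and the largest rise was *Leng8-203* at 1.09 (SE 0.23, q = 0.0294). *Leng8-203* is a minor isoform with a mean of 641 counts, and 50% of its variance came from the assignment of reads. The main *Leng8-201*, with a mean of 13173, was at 0.21 (SE 0.20, q = 0.448). For the nuclear pore and the factors of mRNA release, 6 of 16 genes had a higher transcript and 1 a lower one. *Rae1-201*, which docks mRNA complexes at the pore, rose by 0.57 (SE 0.09, q = 0.0149), and *Nup98-201*, of its binding partner in the pore, fell by 1.00 (SE 0.30, q = 0.0452). *Nup98-201* is a minor isoform with a mean of 189 counts, and 64.2% of its variance came from the assignment of reads. The main *Nup98-203* had 3951 counts in KD and 3456 in WT, without overlap of the libraries (log2(fold change) 0.19, SE 0.12, q = 0.177). In the route through the exportin CRM1, 4 of 10 genes had a higher transcript, led by *Lrpprc-201* at 0.54 (SE 0.08, q = 0.0149).

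The remaining lists were the exon junction complex, which marks spliced mRNA, and the complex that binds its cap. In the first, 2 of 9 genes had a higher transcript and 1 a lower one, with *Eif4a3-201*, the helicase at the core of the complex, at 0.40 (SE 0.08, q = 0.0196) and *Magohb-205*, of a core subunit, at -0.67 (SE 0.16, q = 0.0329). In the second, 1 of 4 genes had a lower transcript, *Ncbp2*, the subunit that binds the cap. *Ncbp2-203* was at 64.3 counts in KD and 292 in WT (log2(fold change) -2.17, SE 0.57, q = 0.0443). It is a minor isoform with a mean of 137 counts. The main *Ncbp2-201* had 3867 counts in KD and 5880 in WT and was also called lower (-0.60, SE 0.14, q = 0.0361). The median log2(fold change) was -0.37 over the 7 transcripts of the cap-binding complex, and between 0.13 and 0.28 in the 6 other lists. Divided by *Actb*, which was higher in KD by 0.46, each of these medians would lie below 0. The median of the cap-binding complex fell on *Srrt-209*, a minor isoform that was not called (q = 0.139). The main transcripts of its 4 genes were *Ncbp2-201* at -0.60, *Ncbp3-201* at -0.19, *Ncbp1-201* at 0.04 and *Srrt-201* at 0.19. Only *Ncbp2-201* of these was called. No test of a list was made, and the lists were written with earlier results of these data known.

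**Figure D5:**
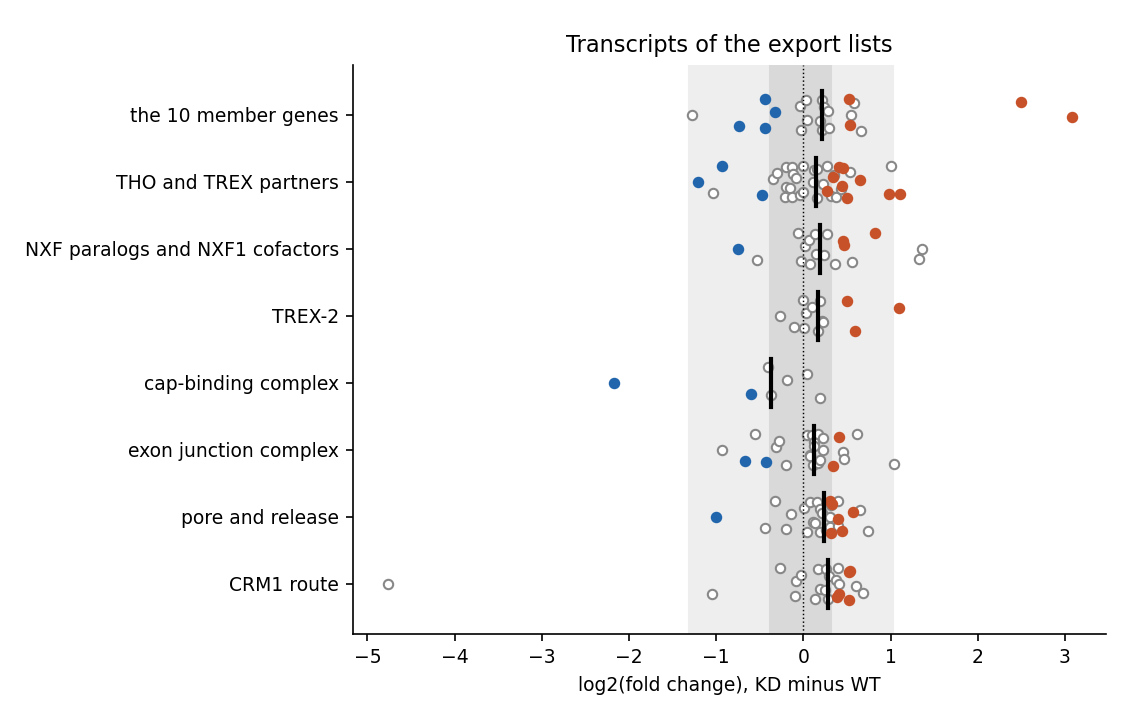
Log2(fold change) of the transcripts of the 10 genes and of 7 lists of the export pathway, with filled points for called transcripts (orange higher, blue lower in KD) and a black bar for the median of each list. The shaded bands hold the middle of all 34200 transcripts, from percentile 25 to 75 and from 5 to 95, and the medians lie between -0.37 and 0.28.

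Sequences upstream of the starts are shown for the paralogs *Nxt1* and *Nxt2*, since both *Nxt2* isoforms that were higher begin within 240 bases of each other. The windows of 250 bases come from RefSeq (GRCm38.p6, plus strand), with CpG pairs in capitals. The first ends at the base before the start of *Nxt2-201*, chrX:142227687-142227936, and the second at the base before a start of *Nxt1*, chr2:148672365-148672614.
Nxt2: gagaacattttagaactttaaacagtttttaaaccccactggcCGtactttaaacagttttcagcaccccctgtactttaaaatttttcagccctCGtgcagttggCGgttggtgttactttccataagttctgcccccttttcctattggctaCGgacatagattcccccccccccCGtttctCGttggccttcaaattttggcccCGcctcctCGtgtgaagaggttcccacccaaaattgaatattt
Nxt1: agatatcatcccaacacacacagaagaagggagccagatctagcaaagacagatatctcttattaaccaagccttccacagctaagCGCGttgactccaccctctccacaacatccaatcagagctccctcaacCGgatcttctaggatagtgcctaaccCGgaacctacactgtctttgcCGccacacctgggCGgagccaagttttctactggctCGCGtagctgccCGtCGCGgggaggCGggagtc
The *Nxt2* window held 8 CpG pairs and that of *Nxt1* held 12, where the median of 32841 windows was 6. The window before *Nxt2-203* held 5. Among the other members that were matched (9 of the 10 had a window), *Nxf1* had 30 and 33, *Ddx39b* 25, *Alyref* 47, *Thoc2* 16, *Thoc5* 14 and *Thoc6* 17. *Thoc7* had 49 before one start and 6 before the other, so a window with few CpG pairs was not particular to *Nxt2*. Both printed windows contain the word CCAAT on at least 1 strand, as do 33.9% of all windows, and the *Nxt1* window also contains GGGCGG, as do 32.7%. The window before *Nxt2-203*, the main isoform of *Nxt2*, was the other way around, with GGGCGG and without CCAAT. The word TATAAA was in none of the windows of *Nxt1* and *Nxt2*, nor was CACGTG, nor was TGACGTCA, nor was CCGGAAGT. Both strands were searched for each word. Such words are a description of these letters and not of binding.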

How the data were processed

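Polyadenylated RNA of 2 KD and 2 WT samples was compared without covariates, with groups taken from the labels. The authors trimmed adapters (BBDuk), estimated transcript counts (Kallisto) and tested transcripts in Sleuth. The processing notes of the submitters also name GRCm38, HISAT2 and bcl2fastq 2.17. The effects, standard errors and means that the authors deposited are on the natural log scale of normalised estimated counts plus 0.5. The variances deposited by the authors are on the same scale. The p-values and q-values deposited by the authors come from their likelihood ratio and Wald tests, with Benjamini-Hochberg adjustment over 34200 transcripts, and gene q-values combine those of transcripts.

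These columns are the comparison of the authors, and 0 columns of single libraries were used. Division by the natural log of 2 gave log2(fold change). The variance within groups was obtained by taking the effect out of the variance over the 4 libraries. It equalled the sum of the 2 deposited variance parts and bounds how far a library can lie from its group mean. Group levels are the exponential of the mean plus or minus 0.5 times the effect, minus 0.5. Intervals of 95% use the deposited standard errors. limma 3.58.1 (R 4.3.3) was run on these means and variances, its prior following the mean, after a test on simulated data. Transcripts were matched by identifier without its version to GENCODE M21 (99.98% found), and words of 31 bases and protein identities were computed with Biopython and pandas. The version was the same for 98.6% of transcripts. It differed for *Nxf1-209*, whose boundaries, words, codons and length are those of the annotated version.

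The members and the lists were chosen with earlier results of these data known. The text names every transcript of the 10 genes, *Setd2*, *Actb*, tested paralogs and, in each list, the called transcript with the largest rise and fall among those averaging 100 or more counts. *Thoc3*, *Erh-205* and the main isoforms of *Leng8*, *Nup98*, *U2af1* and *Ncbp2* were named after their values were seen. So were the other transcripts of the cap-binding complex and the genes antisense to a member. The alternatives were the Wald test, limma with and without a trend, count limits of 100 and 10, centring on the median, division by *Actb*, centring over 50 classes of GC content, sums over isoforms and the deposited gene q-values.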

Additional observations from a re-analysis of the deposited data

How the results depend on the processing

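Of the 8 calls among the members, 8 were shared with the Wald q-values (which called 10.4% of all transcripts higher and 7.8% lower), 7 with limma with a trend, 7 with the limit of 100 counts, 8 with the limit of 10 counts (9.7% and 7.13% of all) and 6 with the Wald test after GC centring (8.86% and 6.75%). These counts include calls of *Nxt2*, whose rise chose the set, so their sharing between tests is no support for that rise. Outside *Nxt2*, 2 transcripts were called higher and 4 lower by the deposited likelihood ratio q-values. limma with a trend called 5 of the 19 transcripts outside *Nxt2*. limma without a trend called 0 transcripts higher and 0 lower, where it called 0.149% and 0.222% of all transcripts. At an unadjusted p under 0.05 it held 9 of the 22, a set that includes *Nxt2*, and 24% of all transcripts. With the limit of 100 counts and q-values adjusted again, 7 member transcripts were higher (6 of 16 without *Nxt2*, 37.5%, beside 20% of all at this setting), since *Nxt1-201*, *Alyref-201*, *Thoc5-201* and *Thoc6-202* passed and *Nxt2-201*, at a mean of 67.3, was left out. By the Wald q-values *Alyref-201* (q = 0.0281) and *Thoc6-202* (q = 0.0430) were also called. *Nxt1-201* (Wald q = 0.149) and *Thoc5-201* (Wald q = 0.132) were not, and limma with a trend called none of these. After GC centring 2 member transcripts were lower, as the calls of *Thoc2-201* and *Thoc7-201* were lost. The cause of these losses was not tested. The median log2(fold change) of the members turned from 0.21 to -0.24 when effects were divided by *Actb*, and 7 of the 22 effects were then positive in place of 15. All 8 called transcripts kept their sign. *Setd2* was at -2.45 divided by *Actb* and at -1.84 after GC centring. By the deposited gene q-values 7 of the 10 genes were called, with *Nxt1* added, against 6 by transcripts. Without *Nxt2* it was 6 of 9, and 24% of all genes were called. Except at the limit of 100 counts, the shares over all transcripts or genes are not limited to well-covered ones, so they are not compared. Calls in the pathway lists went from 28 higher and 9 lower to 40 and 9 by the Wald q-values and to 20 and 8 by limma. The sum over isoforms per kilobase, chosen after seeing the data, gave -0.53 for *Nxf1* against -0.56 for the plain sum.

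No paired analysis was possible because the tables hold no values of single libraries, and leaving out each library in turn was not run for the same reason. With 2 libraries in each group, unknown depth and isoforms that share most of their sequence, small changes of minor isoforms were not detectable.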

Other observations

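The genes nearest to *Nxt2* on chromosome X were also read, since the start of *Nxt2* was the site of the largest rise among the members. The nearest tested gene downstream, Gm5643 at 57.9 kb, was at 15.7 normalised estimated counts for KD and 17.2 for WT (log2(fold change) -0.13, SE 0.62) and was not called. *Acsl4*, which encodes an enzyme that activates long-chain fatty acids, lies further downstream, at 78.3 kb. Its main transcript *Acsl4-203* averaged 2695 normalised estimated counts over the KD libraries and 4018 over the WT libraries (log2(fold change) -0.58, SE 0.11, q = 0.0191 by the deposited likelihood ratio test). *Acsl4-201* and *Acsl4-202* were at -0.15 (SE 0.16) and -0.30 (SE 0.28) and were not called. *Gucy2f*, upstream, was at 3.63 such counts in KD and 12.6 in WT, and the more distant Gm15298 at 78.4 and 87.6, with no call. These genes were chosen by position.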
